A study of Mus musculus with 5 samples.

Results

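The metalloprotease genes described here are those that encode matrix metalloproteases (*Mmp*), a disintegrin and metalloprotease proteins (*Adam*), their relatives with thrombospondin motifs (*Adamts*) and the ADAMTS-like proteins (*Adamtsl*). They were chosen by gene name alone, and 79 of the 20365 genes in the SLAMseq tables matched, on 169 of 40428 distinct 3′ intervals. Where a gene had several intervals, the one with the largest CPM averaged over labeled libraries stood for it. The 79 genes comprised 23 *Mmp*, 32 *Adam*, 19 *Adamts* and 5 *Adamtsl* genes.

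Cardiac fibroblasts (CF) had been obtained from hearts of adult, healthy, male wildtype mice of the C57Bl/6J strain by collagenase perfusion and cultured to confluency. The labeled group consisted of 3 libraries from CF kept for 12 h with 0.1 mM 4-thiouridine (S4U), a uridine analog that enters newly made RNA. The unlabeled group consisted of 2 libraries from CF incubated in parallel for 12 h without S4U, and RNA of both groups was alkylated. After alkylation, an incorporated S4U is read as C instead of T, so that the T>C conversion rate, the number of conversions per covered T, rises with the share of RNA made in the presence of S4U. It is not that share itself, since only some of the U positions in new RNA carry S4U. All libraries therefore describe cultured CF from uninjured hearts, and none describes infarcted tissue. The study describes labeled libraries as separate cell preparations, but the labels do not say so for either group, and the errors may cover technical spread only.

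Metalloproteases of these families are zinc-dependent enzymes that cut proteins outside the cell or at its surface. The MMPs degrade collagens and other matrix components, several ADAMs release the outer part of membrane proteins such as growth factor precursors, and the ADAMTS proteases process procollagens or cleave proteoglycans, while the ADAMTS-like proteins lack the protease domain. Fibroblasts are a main source of several of them in the heart, where matrix is continuously built and removed, and tissue inhibitors of metalloproteinases (TIMPs) hold their activity in check.

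On the chosen intervals of all genes, libraries held from 506045 reads (labeled replicate 3) to 1843033 reads (unlabeled replicate 1). Levels are given as rpm, a gene's reads scaled to the summed reads of its library on these intervals. Because each transcript gives reads from its 3′ end only, levels were not divided by transcript length. All 8 fibroblast marker genes reached 10 reads in every labeled library, and their summed level was 33033 to 44121 rpm. Of the markers of other cells, 3 of 5 for endothelium (*Cdh5*, *Kdr* and *Tek*), 1 of 5 for smooth muscle cells and pericytes (*Cnn1*) and 0 of those for macrophages and cardiomyocytes met the same criterion. The 6 macrophage markers summed to 36.9 to 74.5 rpm, the 5 endothelial markers to 93.9 to 200 rpm, the 5 markers of smooth muscle cells and pericytes to 10.04 to 33.6 rpm and the 5 cardiomyocyte markers to 0.634 to 7.03 rpm. Of these markers, *Vwf* (endothelium), *Myh11* (smooth muscle), *Actn2* and *Ryr2* (cardiomyocytes) had 0 reads in all 3 labeled libraries. *Vwf* had 1.00 rpm in unlabeled replicate 2 and *Myh11* 0.543 rpm in unlabeled replicate 1. In labeled libraries the other endothelial markers averaged 17.0 (*Pecam1*) to 43.0 rpm (*Cdh5*). The other markers of smooth muscle cells and pericytes averaged 1.40 (*Kcnj8*) to 15.1 rpm (*Cnn1*), and those of cardiomyocytes 0.279 (*Myh6* and *Tnni3*) to 3.20 rpm (*Tnnt2*). The isolation that the study describes for CF of operated hearts includes magnetic removal of CD31+ endothelial and CD45+ immune cells, and the labels do not mention this step. The part of other cells in a member's level was not tested, and in bulk RNA fewer cells of a type cannot be told apart from less RNA per cell.

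Of the 79 genes, 23 (29.1%) were expressed, defined as at least 10 reads in every labeled library, whereas 34.1% of all genes in the tables met this criterion. A further 31 had some reads in at least 1 library, and 25 had 0 reads in all 5 libraries. Zero reads in a labeled library allow a level of up to 1.90, 2.51 or 5.93 rpm in replicates 1, 2 and 3 (3 reads of the total, counting error only). Expression was found for 8 of 23 *Mmp*, 6 of 32 *Adam*, 6 of 19 *Adamts* and 3 of 5 *Adamtsl* genes. Together the 79 genes took 0.614 to 0.819% of counted reads in the labeled and 0.758 to 0.994% in the unlabeled libraries. The *Adamts* genes held 43.9% of the summed mean level in labeled libraries, the *Mmp* genes 37.3%, the *Adam* genes 16.1% and the *Adamtsl* genes 2.65%. Expressed members spanned a 61.2-fold range, from 27.7 to 1697 rpm, and the 4 genes with the highest level, *Adamts5*, *Mmp3*, *Adamts2* and *Mmp14*, made up 65.2% of the summed level.

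**Figure D1:**
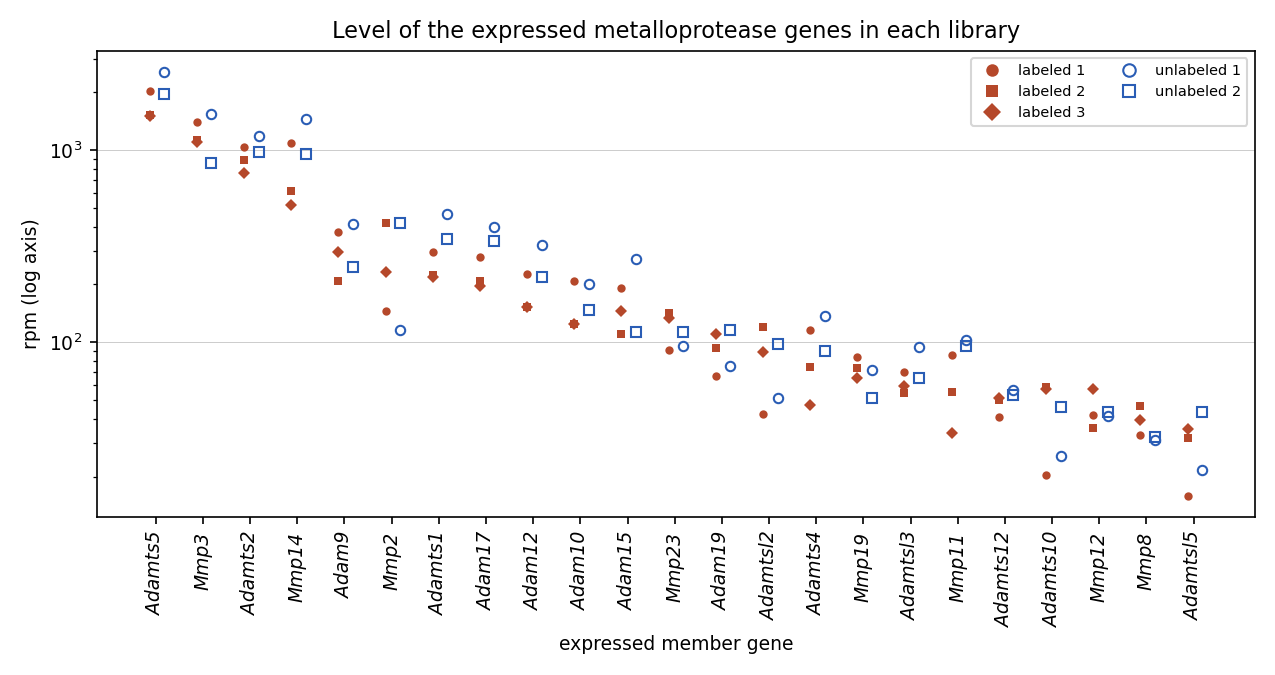
Level of the 23 expressed metalloprotease genes, ordered by their mean in labeled libraries (y axis, rpm, log scale). Filled points are the 3 labeled and open points the 2 unlabeled libraries. *Adamts5*, *Mmp3*, *Adamts2* and *Mmp14* stand above the rest, and the libraries of *Mmp2* spread from 116 to 420 rpm.

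Among the proteoglycan-cleaving ADAMTS proteases, *Adamts5*, an aggrecanase that also cuts versican, had the highest level of all 79 genes. It gave 2046, 1529 and 1516 rpm in labeled replicates 1 to 3 and 2557 and 1969 rpm in unlabeled replicates 1 and 2, a labeled mean of 1697 ± 303 rpm (SD, n = 3), above 99.4% of expressed genes. The highest value came from unlabeled replicate 1, and the groups overlapped. *Adamts1*, another versican-cleaving protease, lies next to *Adamts5* on chromosome 16, the 2 measured intervals lying within 68.8 kb, and had 14.5% of its level, with 296, 223 and 219 rpm in labeled and 467 and 343 rpm in unlabeled libraries. Every labeled library of *Adamts1* was below both unlabeled ones. *Adamts4*, also an aggrecanase, was expressed at 79.3 ± 34.6 rpm (SD, n = 3). The remaining genes of this group, *Adamts8*, *Adamts9*, *Adamts15* and *Adamts20*, had reads but not 10 in every labeled library. In the neighbouring pair *Adamts8* and *Adamts15* on chromosome 9, neither gene was expressed by this criterion.

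*Adamts2*, the procollagen N-proteinase that removes the amino-terminal propeptides of fibrillar collagens, was the third most abundant member. Its levels were 1042, 893 and 757 rpm in labeled and 1183 and 976 rpm in unlabeled libraries, a labeled mean of 897 ± 143 rpm (SD, n = 3), and the groups overlapped. The other procollagen N-proteinases were far lower, with 2.84 rpm for *Adamts3* and 2.13 rpm for *Adamts14*. Of their substrates, *Col1a1* had 13036 ± 270 rpm, *Col1a2* 11048 ± 1716 rpm and *Col3a1* 8336 ± 791 rpm in labeled libraries (SD, n = 3).

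Of the secreted MMPs, *Mmp3*, a stromelysin with many matrix substrates, was the most abundant. It had 1404, 1135 and 1099 rpm in labeled and 1553 and 856 rpm in unlabeled libraries, with a labeled mean of 1212 ± 167 rpm (SD, n = 3). The lowest and highest values were the 2 unlabeled libraries, with all labeled libraries between them. *Mmp2*, the gelatinase A, had 146, 419 and 231 rpm in labeled and 116 and 420 rpm in unlabeled libraries. Its spread lay within the groups, since replicate 2 was the highest library of each group. The other gelatinase gene, *Mmp9*, averaged 0.21 rpm. Among the collagenases, *Mmp8* alone was expressed, at 39.8 ± 6.94 rpm (SD, n = 3), *Mmp13* averaged 1.19 rpm, and *Mmp1a* and *Mmp1b* had 0 reads in all libraries.

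A cluster of 10 *Mmp* genes lies within 417 kb on chromosome 9, and 3 of them were expressed, *Mmp3*, *Mmp12* (macrophage elastase) and *Mmp8*. *Mmp3* accounted for 92.8% of the summed level of this cluster, 4 of its genes had 0 reads in all libraries, and *Mmp12* was at 45.1 ± 11.01 rpm (SD, n = 3). The summed macrophage marker level given above was of the order of the *Mmp12* level, and its part in the *Mmp12* reads was not tested.

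Of the 7 membrane-bound MMPs, only *Mmp14* and *Mmp23* were expressed. *Mmp14*, which encodes MT1-MMP, a pericellular collagenase and activator of MMP2, had 1093, 611 and 518 rpm in labeled and 1448 and 957 rpm in unlabeled libraries. Labeled replicate 1 lay between the 2 unlabeled libraries, and the other labeled libraries lay below both. The *Mmp14* interval calls for caution, since 33.2% of it falls in the annotated *Mmp14* untranslated region (UTR) and it shares bases on the same strand with the gene model *Gm56768*, whose reads cannot be told apart from those of *Mmp14*. *Mmp23*, a membrane-anchored MMP released by cleavage of its own chain, had 122 ± 27.8 rpm (SD, n = 3) on an interval of only 55 bases.

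All 6 expressed *Adam* genes belong to the 9 classed as sheddases. *Adam9* was the most abundant with 376, 208 and 296 rpm in labeled and 415 and 248 rpm in unlabeled libraries. *Adam17*, which encodes TACE, the protease that releases tumor necrosis factor, had 278, 209 and 196 rpm in labeled and 396 and 338 rpm in unlabeled libraries. All its labeled values were below its unlabeled ones. *Adam10*, the main sheddase of Notch receptors and cadherins, had 207, 125 and 124 rpm in labeled and 202 and 148 rpm in unlabeled libraries, with overlapping groups. *Adam12* averaged 177 ± 43.3 rpm, *Adam15* 150 ± 41.3 rpm and *Adam19* 90.3 ± 22.2 rpm in labeled libraries (SD, n = 3). *Adam11*, *Adam22* and *Adam23*, which lack protease activity, were not expressed. Of the 20 other *Adam* genes, 14 had 0 reads in all libraries, including all 8 genes of a group on chromosome 8 that starts with *Adam24*, and none was expressed. Many of these *Adam* genes are known for their roles in testis and sperm.

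S4U incorporation was measured next. Pooled over the 79 genes, the T>C conversion rate was 0.0285, 0.0295 and 0.0283 in the labeled libraries and 0.000838 and 0.000481 in the unlabeled ones. Over all distinct intervals of all genes, not 1 per gene, it was 0.0353 to 0.0358 in labeled libraries. Pooling weights genes by coverage, and *Mmp3* gave 52866 of the 217894 covered T of the members in labeled replicate 1. For each interval, labeled and unlabeled conversions were compared by a beta-binomial likelihood ratio test, with a call at unadjusted p below 0.05. Of 38 metalloprotease genes tested, 33 were called higher in labeled libraries and 0 lower, among them all 23 expressed genes. Over all intervals tested 94.6% were called, and 95.2% with 1 interval per gene, so that a call by itself does not set these genes apart. The 5 genes not called were *Adam22*, *Adam23*, *Adamts14*, *Adamts17* and *Mmp15*, each with between 9 and 174 covered T per labeled library. An exact permutation test of 3 against 2 libraries cannot give a p below 0.1, so the sizes of the rates are of more use than the calls.

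The rates were compared between genes where at least 1000 T were covered in every labeled library, which held for 11 members and 2123 genes in all. The well covered members had between 1601 and 53542 covered T per labeled library. Their median rate was 0.0352 (quartiles 0.0216 and 0.0397), and that of all 2123 genes was 0.0388 (quartiles 0.0343 and 0.0423). The 11 genes fell into an upper range of 7 genes, with 0.0324 to 0.0497 in single labeled libraries, and a lower range of 4 genes, with 0.0118 to 0.0277, which did not overlap. This gap was seen in the data and was not tested. Of the 10 pairs of genes next to each other in the order of mean rates, 9 overlapped in their labeled libraries. Genes further apart in the same range could still be separate, as were *Adamts2* and *Mmp2*, or *Mmp14* and *Adam10*. The neighbours without overlap were *Adam9* and *Adam12*, which border the gap.

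**Figure D2:**
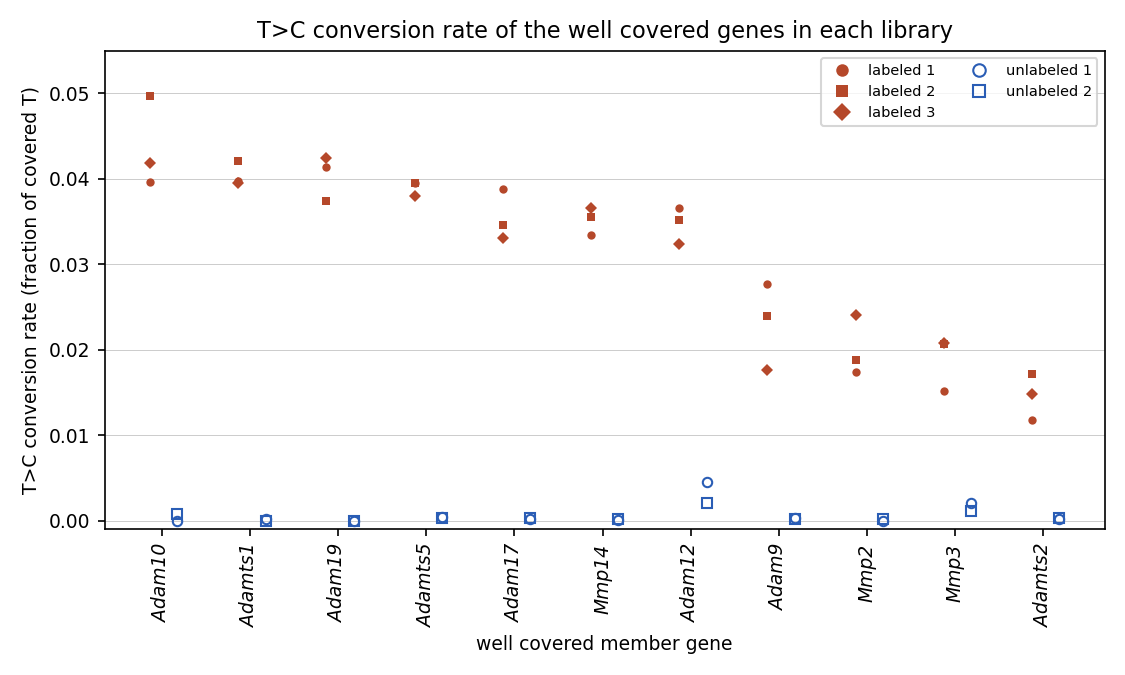
T>C conversion rate (y axis, conversions per covered T) of the 11 well covered metalloprotease genes, ordered by their labeled mean. Filled points are the 3 labeled and open points the 2 unlabeled libraries. *Adam9*, *Mmp2*, *Mmp3* and *Adamts2* lie at 0.0118 to 0.0277 and the other 7 genes at 0.0324 to 0.0497, while *Adam12* has the highest unlabeled values.

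*Adam10* had the highest rate of the well covered members, with 0.0397, 0.0497 and 0.0418 in labeled libraries against 0 and 0.000792 in unlabeled ones. Its mean of 0.0437 ± 0.0053 (SD, n = 3) was above 83.7% of the well covered genes, and 53.5 to 71.8% of its reads in labeled libraries carried a conversion. *Adamts1* had 0.0397, 0.0420 and 0.0395 (0.0404 ± 0.0014, SD, n = 3), with 48.5 to 59.9% converted reads. *Adam19* had 0.0414, 0.0374 and 0.0424, with 0 conversions in both unlabeled libraries. *Adamts5* was the most even, with 0.0395, 0.0395 and 0.0380 (0.0390 ± 0.00087, SD, n = 3), close to the median of all well covered genes, and 43.4 to 46.7% of its reads were converted. The neighbours *Adamts1* and *Adamts5* thus differed in level, while their rates overlapped.

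*Adam17* reached 0.0355 ± 0.0030, *Mmp14* 0.0352 ± 0.0016 and *Adam12* 0.0348 ± 0.0021 (SD, n = 3), which lay above 26.7 to 30.2% of the well covered genes. Among the well covered members, *Adam12* stood out by its unlabeled rates of 0.00455 and 0.00209, and its rate minus the unlabeled mean was 0.0314. What causes T>C mismatches without S4U at *Adam12* was not tested. The *Mmp14* rates of 0.0334, 0.0356 and 0.0366 were met by 2 conversions in each unlabeled library, over 34707 and 16074 covered T.

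In the lower range, *Adamts2* had 0.0118, 0.0171 and 0.0149, a mean of 0.0146 ± 0.0027 (SD, n = 3) that exceeded only 4.10% of the well covered genes. In labeled libraries 10.05 to 17.0% of *Adamts2* reads were converted. *Mmp3* had 0.0152, 0.0206 and 0.0208 in labeled libraries, and its unlabeled rates of 0.00200 and 0.00117 were the highest after *Adam12* among the 11 genes. *Mmp2* had 0.0173, 0.0188 and 0.0240 (0.0200 ± 0.0035, SD, n = 3), although its level differed 2.87-fold between labeled replicates 1 and 2. *Adam9* had 0.0277, 0.0240 and 0.0176, the widest relative range of the sheddases in the set, and 28.7 to 38.4% converted reads. Low rates also occurred at high levels, since *Mmp3* and *Adamts2* were the second and the third most abundant members, and among the fibrillar collagens *Col3a1* had a rate of 0.0151 ± 0.0014, *Col1a2* 0.0200 ± 0.0007 and *Col1a1* 0.0259 ± 0.0020 (SD, n = 3).

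**Figure D3:**
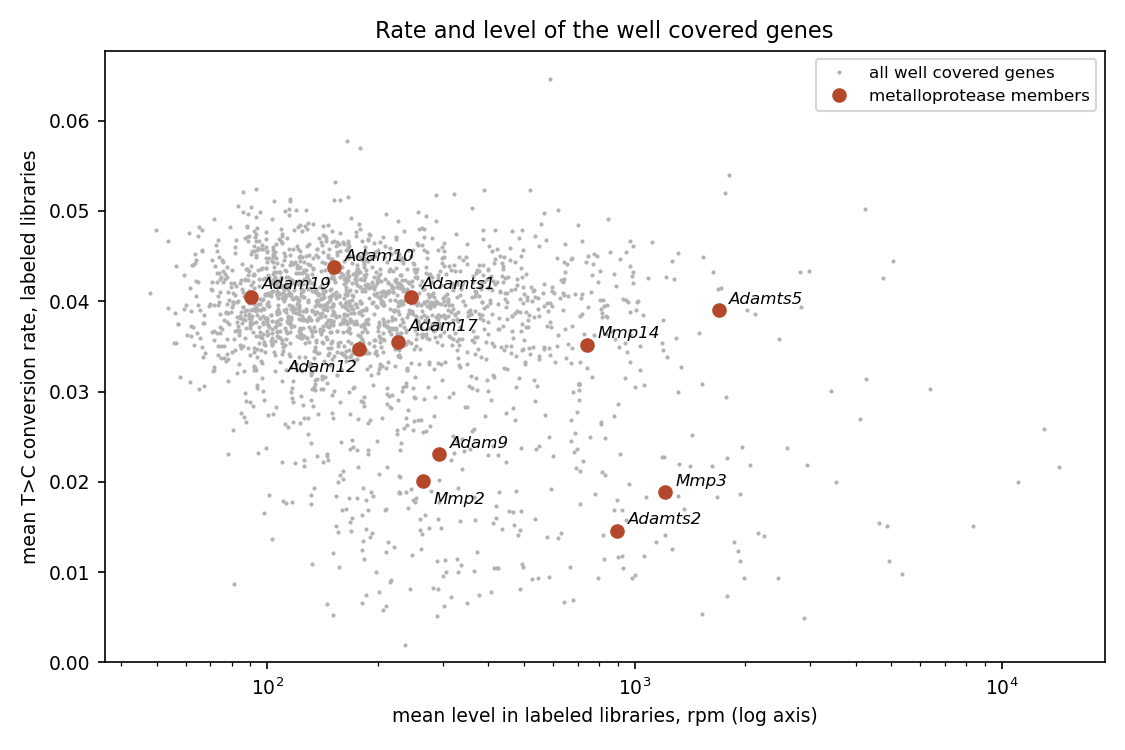
Mean T>C conversion rate in labeled libraries (y axis) against mean level in rpm (x axis, log scale) for the 2123 well covered genes (gray), with the 11 metalloprotease genes in red. *Mmp3*, *Adamts2*, *Mmp2* and *Adam9* lie in the sparse region below 0.0277, whereas *Adam10*, *Adamts1*, *Adam19* and *Adamts5* lie among most other genes.

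Across the 11 genes the Spearman correlation of rate with level was -0.55, against -0.21 over all 2123 well covered genes. These are descriptions across genes that share the same libraries and have unequal coverage. The 12 expressed members below the coverage limit had rates between 0.0142 (*Mmp8*) and 0.0438 (*Mmp11*), each from fewer than 1000 covered T in at least 1 labeled library. Of these, *Adam15* and *Mmp23* belong to the 12 members with the highest level and had 0.0146 ± 0.0020 and 0.0166 ± 0.0045 (SD, n = 3), with 0 conversions in the unlabeled libraries. The unlabeled rates were 0.00180 and 0.00450 for *Mmp8* and 0.00495 and 0.00264 for *Mmp11*, and were not subtracted from the rates given. *Adamtsl2*, an ADAMTS-like protein of the microfibril matrix, had 0.0186, 0.0185 and 0.0186, from 20, 51 and 16 conversions. Counts this small do not fix a rate as closely as these values lie together. By family, the median rate of the expressed genes was 0.0351 for *Adam* (6 genes), 0.0314 for *Adamtsl* (3), 0.0288 for *Adamts* (6) and 0.0195 for *Mmp* (8). This order depends on the coverage limit. Among well covered members, the median was 0.0390 for *Adamts* (3 genes), 0.0355 for *Adam* (5) and 0.0200 for *Mmp* (3).

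The measured intervals were compared with GRCm39, where the T content of all 169 member intervals matched the deposited tables. The intervals of *Adamts5* (chr16:85655045-85659497, minus strand), *Mmp3* (chr9:7455691-7455975, plus strand), *Adamts2* (chr11:50694857-50698400, plus strand) and *Adam10* (chr9:70685377-70687511, plus strand) lay entirely in the annotated UTRs of these genes, that of *Adamts5* ending 1984 bases from the nearest annotated transcript end. That of *Mmp14* was at chr14:54678130-54679913 (plus strand), with its end 1191 bases from such an end. The 3′ UTR can hold AU-rich elements, short ATTTA-containing stretches that are known to mark some short-lived messages. To show what such stretches look like here, windows of 30 bases with the most ATTTA copies in the interval are given for 3 genes of the upper range, *Adam10*, *Adamts1* and *Adamts5*, for 3 of the lower range, *Mmp2*, *Mmp3* and *Adamts2*, and for *Adamts4*, the expressed member with the most copies in 1 window. They are written 5′ to 3′ on the strand of the gene, with each ATTTA in capitals. The windows are at chr9:70685524-70685553 (+), chr16:85591170-85591199 (-), chr16:85656595-85656624 (-), chr8:93579408-93579437 (+), chr9:7455933-7455962 (+), chr11:50695419-50695448 (+) and chr1:171087052-171087081 (+), in the order of the lines.
Adam10: gaattactcaaaATTTAaagcctgaaaatt
Adamts1: aacatATTTAtttttatacATTTAtttcta
Adamts5: tgaaattATTTAttcttATTTAacaaaaat
Mmp2: tggtgacttcagATTTAagagggtggcttc
Mmp3: atggtttgttttATTTAataaagattgtgt
Adamts2: acatagtgttttATTTAtagatcaattgcc
Adamts4: ATTTAtttggtATTTAttcatttttATTTA

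Whole intervals were searched on the strand of the gene for ATTTA, for TATTTAT, which contains ATTTA, and for TGTANATA, the Pumilio motif. ATTTA occurred in 62.4% of all chosen intervals, TATTTAT in 25.8% and TGTANATA in 22.3%. Of the 23 expressed members, 18 had ATTTA and 8 had TATTTAT. The shares over all chosen intervals include genes that were not expressed. Of the 2123 well covered genes, 35.7% had TATTTAT. The 4453-base interval of *Adamts5* held 16 copies of ATTTA, the 1574-base interval of *Adamts1* 6 copies and the 2135-base interval of *Adam10* 3 copies. The 285-base interval of *Mmp3* and the 756-base interval of *Mmp2* held 1 copy each, and the 3544-base interval of *Adamts2* held 5. *Adam9*, also of the lower range, held 6 copies in 1306 bases. Its 4.59 copies per kb were the highest density of the 11 well covered genes. In the upper range, *Adam12* held 6 copies in 4743 bases, *Adam19* 3 in 3502 and *Adam17* 1 in 1767. *Adamts1*, *Adamts4* and *Mmp12* each had 3 copies of TATTTAT, a number reached by 3.79% of all chosen intervals and by 2.97% (*Adamts1*), 8.53% (*Adamts4*) and 4.41% (*Mmp12*) of intervals within 20% of their length. The *Mmp14* interval, with a rate in the upper range, held none of the 3 motifs, and 33.2% of it falls in the annotated *Mmp14* UTR. Across the 11 well covered genes, the Spearman correlation of the rate with ATTTA copies per kb was -0.08 (0.24 over all 2123 genes), that with interval length 0.25 (0.21) and that with GC content -0.35 (-0.27). A match is a description of the letters only, and whether these motifs bear on the rates was not tested.

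Some genes had further intervals with enough coverage to compare. For *Adam17*, intervals of 1767 and 1596 bases gave rates of 0.0355 and 0.0353. For *Adamts5*, intervals of 4453 and 4180 bases gave 0.0390 and 0.0389, and for *Mmp2*, intervals of 756 and 755 bases gave the same value. These intervals overlap and share most reads. *Adam19* had a shorter interval of 2824 bases with a rate of 0.0250 ± 0.0150 (SD, n = 3), but it was covered by only 114 to 284 T per labeled library. Among the genes expressed or tested for reads, the intervals of *Adam8*, *Adam15*, *Adam17*, *Adam19*, *Adamts6*, *Adamtsl4*, *Mmp2*, *Mmp8*, *Mmp19* and *Mmp27* overlap a gene model on the other strand, and whether counting kept strands apart is not given in the sources used here.

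To ask whether 12 h of S4U went with a different number of reads, labeled and unlabeled libraries were compared by edgeR's quasi-likelihood test without a replicate block. Of the 79 genes, 31 passed the filter on low counts, and 0 of these 31 were called at an adjusted p below 0.05. With the replicate number as a block, edgeR called 7 of the 31 (1 higher, 6 lower) and 1146 of all genes, on 1 residual degree of freedom. *Adamts15*, *Adamts6*, *Adamts1* and *Adam17* were among these 7. The labels give no basis for this block in shared preparations. DESeq2 called 0 of the 25 members for which it gave an adjusted p, *Adamts15* and *Adamts6* not being among them. Of all 9807 genes tested, 0% were called by edgeR without the block (585 at unadjusted p below 0.05) and 19 genes by DESeq2. The lowest adjusted p of a member by edgeR without the block was 0.531, and the values below are from that fit. At unadjusted p below 0.05, 3 members were lower in labeled libraries, where 3.12% of all genes tested were, and 1 was higher, where 2.84% were. The log2 fold change was below 0 for 20 of the 31 members and above 0 for 11, where 48.3% of all genes tested were below 0. The median was -0.14 against 0.018 for all genes tested. For 7 of the 31 members every labeled library was below both unlabeled ones (13.1% of all genes tested), and for 2 every labeled library was above both (8.2%).

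**Figure D4:**
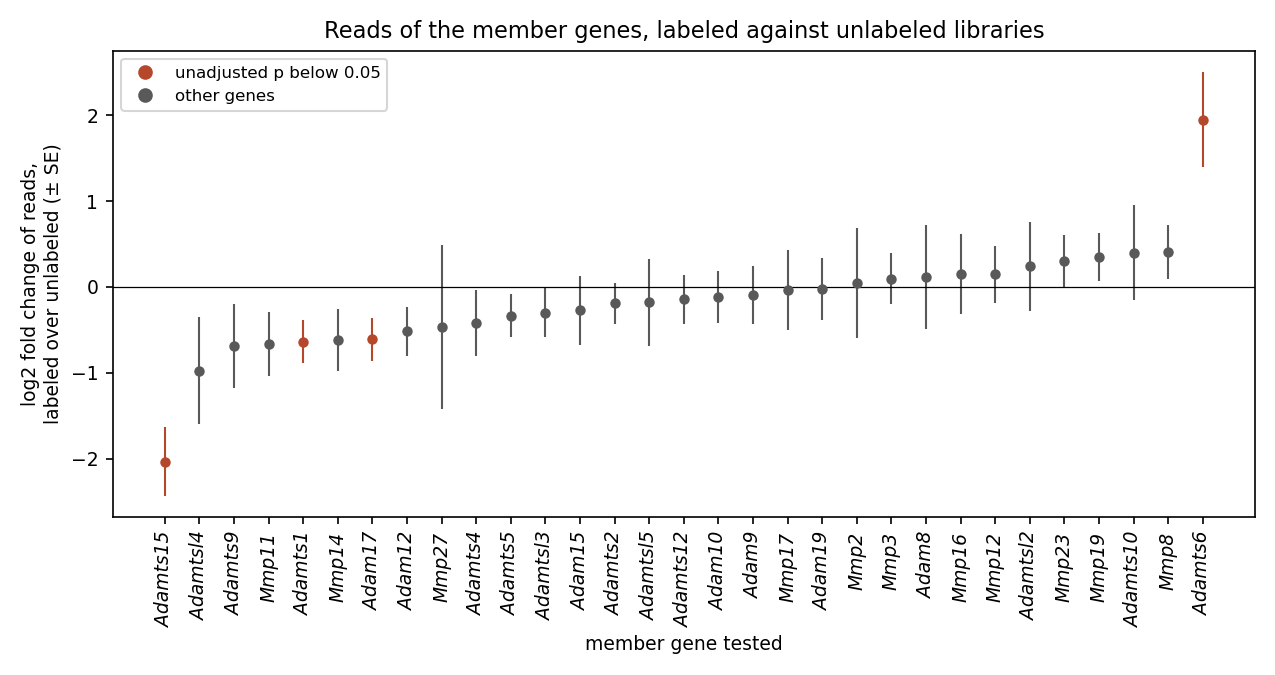
Log2 fold change of reads, labeled over unlabeled libraries, from edgeR (y axis, with the standard error) for the 31 metalloprotease genes tested, in rising order. Red marks the 4 genes at an unadjusted p below 0.05, from *Adamts15* at -2.03 to *Adamts6* at 1.95, none of which passed adjustment in this fit without a replicate block.

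*Adamts15*, a versican-cleaving protease, had the lowest fold change. It had 13, 7 and 5 reads in labeled and 72 and 28 reads in unlabeled libraries, so that every labeled level (5.86 to 9.88 rpm) was below both unlabeled levels (28.1 and 39.1 rpm). Its log2 fold change was -2.03 ± 0.40 (SE), with an adjusted p of 0.531 by edgeR without the block. *Adamts6*, an ADAMTS protease known from cardiac development, moved in the opposite direction, with 29, 17 and 4 reads in labeled and 8 and 3 reads in unlabeled libraries and a log2 fold change of 1.95 ± 0.55 (SE, adjusted p = 0.626, edgeR). Both genes rest on few reads. *Adamts1* had a log2 fold change of -0.64 ± 0.25 and *Adam17* of -0.61 ± 0.25 (SE, adjusted p = 0.811 for both, edgeR). The log2 fold changes of the most abundant members were -0.34 ± 0.25 for *Adamts5*, 0.10 ± 0.30 for *Mmp3*, -0.19 ± 0.24 for *Adamts2* and -0.62 ± 0.36 for *Mmp14* (SE), of which that of *Mmp14* was of the same size as those of *Adamts1* and *Adam17* but with a larger error. A p above the threshold with 3 against 2 libraries does not show that levels were equal.

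A list of 20 genes for inhibitors, activators and partners of these proteases was looked at in the same way. Of these, 13 were expressed, where 34.1% of all genes were. A raised T>C rate was called for 15 of 15 tested, near the 95.2% called over all genes. By edgeR without the block, 0 of 15 tested were called for a change in reads, where 0% of all genes were. At unadjusted p below 0.05 in this edgeR fit, 0 were lower and 1 higher, where 3.12% and 2.84% of all genes were. Their log2 fold changes were above 0 for 5 and below 0 for 10 genes, where 48.3% of all genes tested were below 0. The median was -0.04. The inhibitor gene *Timp3* had 4734 ± 1114 rpm (SD, n = 3) in labeled libraries, above every metalloprotease gene. *Timp2* had 1677 ± 623 rpm (SD, n = 3), just below the labeled mean of *Adamts5* (1697 rpm). In labeled replicate 1, *Timp2* had 1018 rpm, below *Adamts5*, *Mmp3*, *Adamts2* and *Mmp14*. In labeled replicates 2 and 3 it had 1756 and 2257 rpm, above all of them. *Timp4* had 0 reads in labeled libraries. *Timp3* and *Timp1* had rates of 0.0426 ± 0.0025 and 0.0428 ± 0.0027, whereas *Timp2* had 0.0184 ± 0.0005 (SD, n = 3). *Timp1* had 520, 1509 and 927 rpm in labeled and 124 and 283 rpm in unlabeled libraries, groups that did not overlap, with a log2 fold change of 2.34 and an adjusted p of 0.585 by edgeR. The proprotein convertase *Furin*, which activates ADAM and membrane-bound MMP precursors, was at 332 ± 97.4 rpm, and *Reck*, a membrane-anchored MMP inhibitor, at 28.3 ± 4.31 rpm (SD, n = 3).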

How the data were processed

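Libraries were made by the study with a QuantSeq 3′ FWD kit with unique molecular identifiers and processed by the authors with UMI-tools and SLAM-DUNK 0.4.3 on mm39. The deposited tables hold 97442 rows per library with read counts, covered T counts, converted T counts, CPM on a total that is not the summed reads used here, and the T>C conversion rate as a fraction. Repeated rows were dropped. The T>C test was a beta-binomial likelihood ratio test (Python 3.11.15, numba 0.67.0) on intervals with covered T in every library. Read counts were tested with edgeR 4.0.16 (TMM, filterByExpr, quasi-likelihood, Benjamini-Hochberg adjustment over all 9807 genes). DESeq2 1.42.0 and limma 3.58.1 served as alternatives, as did other filters, size factors and intervals and leaving out single libraries. Both tests were also run on simulated data. The simulated background T>C rate was higher than that of the unlabeled libraries, and the simulated reads had no replicate effect. No conclusion about the tests in these data is drawn from them.

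Counted reads were 1576048, 1194971 and 506045 in the labeled and 1843033 and 996143 in the unlabeled libraries, and intervals and limits of 0 cover counting error only. The gene models were those of GENCODE vM39. Groups came from the labels. Genes and lists were chosen with earlier results of these data known. Named genes were the 12 members with the highest CPM, the 6 highest and 6 lowest rates among well covered members, those at unadjusted p below 0.05 for reads (up to 5 in each direction) and those with a second covered interval. Further genes named by value, the roles and the chromosomal groups were chosen after values were seen.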

Additional observations from a re-analysis of the deposited data

How the results depend on the processing

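The labels give the groups the same replicate numbers but do not say that a number marks a shared preparation. Deviations from the group mean correlated at 0.784 for the libraries numbered 1 and 0.638 for those numbered 2 across 9807 genes, and labeled replicate 3 correlated at 0.482 with unlabeled replicate 2. With 2 unlabeled libraries these deviations mirror each other, so the correlations are not separate evidence. With the replicate number as a block, edgeR called 7 members for reads (1 higher, 6 lower) and 1146 of all genes, on 1 residual degree of freedom. *Adamts15*, *Adamts1*, *Adam17* and *Adamts6* were among them, at -2.17, -0.59, -0.54 and 2.17 on the log2 scale. DESeq2, RLE size factors, no filter, summed intervals and leaving out each library called 0 members, with 2 to 6 at unadjusted p below 0.05 (DESeq2 2). DESeq2 gave no adjusted p for 6 of the 31 members, *Adamts15* and *Adamts6* included, which it could therefore not call.

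A criterion of 1 read in every labeled library gave 41 expressed members instead of 23, and leaving out each labeled library gave 23 to 28. Asking for 1000 covered T in every library left 11 members for the rate test, all called. Leaving out each library gave 29 to 33 calls, and limma on the log odds gave 36 with and without the replicate block. The median rate was 0.0314 over the 27 members with 100 covered T in every labeled library, and 0.0335 to 0.0350 without each labeled library in turn. Subtracting the unlabeled mean lowered *Adam12* to 0.0314, by more than its SD over libraries, and *Mmp3* to 0.0173, by less than its SD. The shallowest library, labeled replicate 3, limits genes near the criteria.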
